A study of Mus musculus with 15 samples.

Results

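Matrix metalloproteinases (MMPs), ADAMTS proteases, the ADAMTS-like proteins and the tissue inhibitors of metalloproteinases (TIMPs) were followed in whole mouse ovaries. Genes were taken by symbol, as rows named Mmp, Timp, Adamts or Adamtsl plus a number, with a mean of at least 3 normalised reads over the 15 libraries. Of 24656 genes in the deposited table, 46 had such a symbol and 40 reached that mean. They comprised 8 secreted MMPs, 6 membrane-anchored MMPs, 4 TIMPs, 7 ADAMTS proteoglycanases, 3 ADAMTS procollagen N-propeptidases, 8 other ADAMTS proteases and 4 ADAMTS-like genes. The rule used the symbols and this overall mean, not differences between groups.

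MMPs and ADAMTS proteases are zinc-dependent enzymes that cut extracellular matrix. MMPs are made as inactive proenzymes, and TIMPs bind and block the active enzymes. ADAMTS proteases remove versican and aggrecan, trim procollagens or act on microfibrils, while ADAMTS-like proteins share their matrix-binding domains but lack the protease domain. In the ovary these enzymes are known for the remodelling that goes with follicle growth, ovulation, and formation and regression of the corpus luteum.

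The mice were of the UM-HET3 stock, a cross of several inbred strains in which each animal has its own genotype. The 3 groups held 5 libraries each: 12-month-old mice given canagliflozin (Cana in the labels) between 6 and 12 months of age, 12-month-old control mice, and 6-month-old control mice. Canagliflozin inhibits SGLT2, the kidney transporter that takes filtered glucose back into the blood. Each library held the polyadenylated transcripts of a single ovary, and each mouse gave 1 library, so p-values measure the spread between mice; the labels describe the RNA extraction for both 12-month groups only. In RNA of whole ovaries, fewer cells of a type and less RNA per cell cannot be told apart.

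Recovered depth was 8.47 to 13.05 M reads (M, 1000000) per canagliflozin library, 11.3 to 13.1 M per 12-month control library and 11.8 to 13.6 M per 6-month control library. The 6 granulosa, 6 corpus luteum and 5 oocyte markers listed were present in every library, at 53.1 normalised reads or more. The share of mitochondrially encoded transcripts was 4.84 to 9.37% in canagliflozin ovaries, 3.70 to 4.46% in 12-month controls and 2.72 to 3.19% in 6-month controls, with no overlap between groups. Values rescaled to the total without those transcripts gave 0, 9 and 15 called genes among the 35 tested in the comparisons of canagliflozin with 12-month controls, 12-month with 6-month controls and canagliflozin with 6-month controls. Whether this share bears on the protease differences was otherwise not tested. Within the 12-month controls, replicate 3 was the lowest library for 17 of the 35 genes tested and had the highest sum of the 3 red cell markers, 13452 normalised reads against 118 to 2987 in the other 4. Canagliflozin replicate 3 was the lowest of its group for 15 of 35 and also had that group's highest red cell sum, 5629. Stromal and macrophage marker sums were the lowest of the group in both of these ovaries, at 6158 and 886 in 12-month control 3. In canagliflozin 3 they were 6664 and 1054. The smooth muscle sum was the lowest of its group in canagliflozin 3, at 7187, but not in 12-month control 3, at 10989. Endothelial sums were the lowest in neither. The part of red cells or of these other cell types in the low protease values was not tested. Without 12-month control 3, 6 of 35 genes were called with age, and without canagliflozin 3, 12 of 35 were called against 6-month controls.

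Promoter sequences were available from RefSeq (build GRCm38.p6) for 25 of the 40 genes, as windows of 250 bases before to 50 bases after a transcription start. Those of Timp1, Timp2, Mmp11, Mmp12 and Mmp14 are shown as examples. Timp2, Mmp11 and Mmp14 were lower in canagliflozin ovaries than in 6-month controls, groups that differ in both drug and age. Mmp12 rose with age, and Timp1 spanned 555 to 20818 normalised reads. Among other called genes, Mmp2, Mmp16, Mmp17, Adamts5, Adamts6, Adamts7, Adamts15 and Adamtsl1 had no window. The windows of Adamts2, Adamts14 and Mmp28 are not shown. Capitals mark matches on either strand. An AP-1 element was searched as TGANTCA, while GGGCGG was the spelling used for a GC box. The TATA box search used only the letters TATAAA, and the box named CCAAT was searched as spelled.
Timp1, chrX:20869916-20870215, plus strand: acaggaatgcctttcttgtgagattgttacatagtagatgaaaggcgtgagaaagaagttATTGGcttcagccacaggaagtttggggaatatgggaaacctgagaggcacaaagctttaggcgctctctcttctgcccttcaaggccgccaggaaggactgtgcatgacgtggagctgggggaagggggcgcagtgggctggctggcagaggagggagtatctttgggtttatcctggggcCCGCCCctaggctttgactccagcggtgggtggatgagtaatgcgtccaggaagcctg
Timp2, chr11:118355362-118355661, minus strand: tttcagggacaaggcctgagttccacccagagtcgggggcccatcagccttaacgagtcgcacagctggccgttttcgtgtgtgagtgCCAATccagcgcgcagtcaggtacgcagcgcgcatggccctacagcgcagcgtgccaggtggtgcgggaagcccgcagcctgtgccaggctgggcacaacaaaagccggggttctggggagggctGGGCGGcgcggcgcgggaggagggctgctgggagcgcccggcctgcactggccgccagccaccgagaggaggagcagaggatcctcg
Mmp11, chr10:75932453-75932752, minus strand: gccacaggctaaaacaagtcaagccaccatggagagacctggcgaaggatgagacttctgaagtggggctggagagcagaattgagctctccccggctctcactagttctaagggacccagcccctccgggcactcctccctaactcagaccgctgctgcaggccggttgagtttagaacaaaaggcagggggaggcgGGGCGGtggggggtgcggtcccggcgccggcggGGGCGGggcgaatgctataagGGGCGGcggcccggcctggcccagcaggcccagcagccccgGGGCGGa
Mmp14, chr14:54431348-54431647, plus strand: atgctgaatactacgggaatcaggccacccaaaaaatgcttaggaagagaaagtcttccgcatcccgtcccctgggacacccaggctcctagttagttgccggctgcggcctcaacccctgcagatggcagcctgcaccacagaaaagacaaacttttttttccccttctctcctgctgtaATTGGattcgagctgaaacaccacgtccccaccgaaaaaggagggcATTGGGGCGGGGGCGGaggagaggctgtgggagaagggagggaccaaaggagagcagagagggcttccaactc
Mmp12, chr9:7347124-7347423, plus strand, the downstream of its 2 listed starts: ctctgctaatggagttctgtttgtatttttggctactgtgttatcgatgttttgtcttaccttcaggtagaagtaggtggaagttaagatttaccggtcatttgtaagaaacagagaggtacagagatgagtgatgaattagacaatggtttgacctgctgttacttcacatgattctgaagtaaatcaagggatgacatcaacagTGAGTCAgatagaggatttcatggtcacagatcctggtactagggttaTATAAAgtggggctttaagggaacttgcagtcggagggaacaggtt
Of the windows shown, those of Timp1, Timp2, Mmp11 and Mmp14 held GC or CCAAT boxes and no AP-1 or TATA match, and in Mmp14 a CCAAT box and a GC box shared 1 base, at -19 from the start. That of Mmp12 held an AP-1 match at -44 to -38 and a TATA match at 5 to 10, and no GC box. An AP-1 match was found in 3 of the 27 windows of the family (11.1%), those of Mmp10, Mmp12 and Mmp13, against 7.81% of all 32851 windows. GC boxes were found in 19 of 27 (70.4%) against 35.66%, TATA boxes in 5 of 27 (18.5%) against 13.62%, and CCAAT boxes in 6 of 27 (22.2%) against 37.41%. Median GC content was 63.67% in the family's windows and 52.67% in all. These are letter matches in the windows, not binding sites.

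Levels between genes were compared as normalised reads per kilobase of exon, averaged over the 15 ovaries. Timp1 stood highest at 3869 per kb, a mean raised by canagliflozin replicates 1 and 3 (7885 in canagliflozin ovaries, 2161 in 12-month controls and 1561 in 6-month controls). Timp2 at 967 and Mmp11 (stromelysin-3) at 819.6 followed, then Mmp2 (gelatinase A) at 634, Timp3 at 455, Adamts10 at 444, the MMP2 activator Mmp14 at 382, Mmp23 at 308 and Adamts2 at 213. The order below Mmp11 depended on the group. In canagliflozin ovaries Adamts10 (511 per kb) and Timp3 (464) stood above Mmp2 (414), and Mmp23 (362) above Mmp14 (283). In 6-month controls Mmp2 was at 991 per kb, and Mmp14 (503) stood above Adamts10 (395). Mmp11 and Mmp2 together made up most of the secreted MMP level, with 50.6% and 39.2% of the family's summed level per kb. Mmp9, the other gelatinase, contributed 2.59%.

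At the other end, 5 of the 40 genes did not reach 10 normalised reads in 5 libraries and were not tested: Mmp10, Mmp13, Adamts8, Adamts18 and Adamts20. Around the inclusion limit, Mmp10 averaged 3.78 normalised reads just inside it and Adamtsl3 averaged 2.99 just outside. The other 5 genes below it were Mmp24 at 2.49, Mmp27 at 2.38, Mmp3 at 2.21, Mmp8 (neutrophil collagenase) at 1.27 and Adamts13, which cuts von Willebrand factor, at 0.784. Of the 5 neutrophil markers listed, S100a8 and S100a9 were in the table, with a sum of 3.00 to 13.9 normalised reads in canagliflozin ovaries, 2.61 to 14.7 in 12-month controls and 2.73 to 5.09 in 6-month controls.

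**Figure D1:**
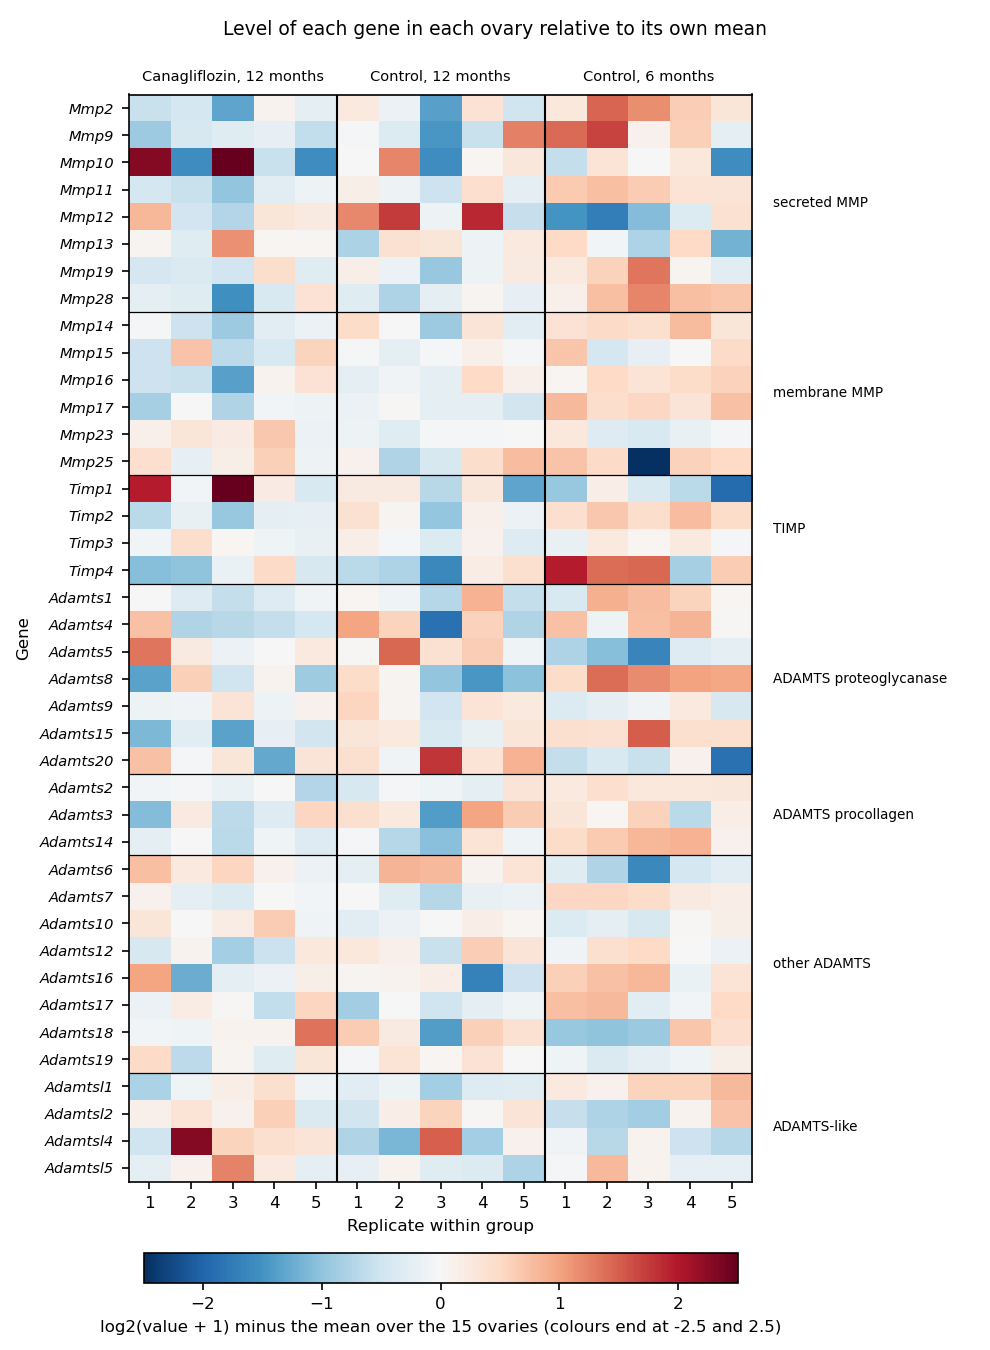
Level of each of the 40 genes (rows, by family) in each ovary (columns, by group), as log2(value + 1) minus the gene's mean over the 15 ovaries. Most rows of the MMP families are red in the 6-month columns. Adamts5 and Adamts6 are blue there, as is Mmp12 except in 6-month replicate 5. Timp1 is deep red in canagliflozin replicates 1 and 3.

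The comparison of canagliflozin-treated with untreated 12-month mice asks what the drug did to these genes. Of the 35 tested, 0 passed an adjusted p under 0.05 in limma, edgeR or DESeq2, against 0.00569% of all 17569 genes in limma. An unadjusted limma p under 0.05 was reached by 3 of 35, against 9.2% of all genes. The median log2 fold change was -0.11 over the 35 and 0.00 over all genes, and 21 of the 35 values were below 0. The groups overlapped for every one of the 35, where 1.05% of all genes showed no overlap.

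Values in single libraries are normalised reads, in the order of replicates 1 to 5. The 3 genes with the smallest p were Adamts15, Mmp11 and Mmp23. Adamts15, a versican-cleaving protease, had 24.3, 44.7, 20.7, 46.6 and 39.03 in canagliflozin ovaries, 66.8, 64.03, 41.3, 47.2 and 66.9 in 12-month controls and 71.1, 69.95, 155, 71.2 and 71.4 in 6-month controls. The highest canagliflozin ovary, at 46.6, lay above the lowest 12-month control, at 41.3, so the groups overlapped (log2 fold change -0.73 ± 0.27 SE by limma, adjusted p = 0.473). Mmp23, a type II transmembrane MMP without the hemopexin domain, had 772, 870.1, 819.9, 1136 and 638 in canagliflozin ovaries, 651, 576, 682, 693 and 716 in 12-month controls and 846, 565, 543, 618 and 685 in 6-month controls. Canagliflozin replicate 4 was its highest ovary, and replicate 5 lay within the control range (log2 fold change 0.33 ± 0.14 SE by limma, adjusted p = 0.515). The third, Mmp11, is given with the secreted enzymes below (log2 fold change -0.41 ± 0.17 SE by limma, adjusted p = 0.514).

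By family, no value passed the test, and differences between families were not tested. Log2 fold changes, below 0 for 8850 of all 17569 genes, were below 0 for 6 of 6 secreted MMPs (-0.80 to -0.06) and 5 of 5 ADAMTS proteoglycanases (-0.73 to -0.12). They were below 0 for 4 of 6 membrane MMPs, 2 of 3 procollagen enzymes, 3 of 7 other ADAMTS genes, 1 of 4 TIMPs and 0 of 4 ADAMTS-like genes (0.04 to 0.85). The signs in families with a single sign were not all stable. In some alternative fits Mmp2, Mmp9, Mmp19, Mmp28, Adamts1, Adamts4 and Adamts5 had values above 0, and Adamtsl2 had values below 0. Adamtsl4, which binds fibrillin microfibrils, had 109.5, 755, 228, 203 and 192 in canagliflozin ovaries, 90.7, 68.9, 439, 85.1 and 165 in 12-month controls and 144, 95.4, 165, 108 and 93.2 in 6-month controls. Its 2 highest ovaries, canagliflozin replicate 2 and 12-month control replicate 3, were in different groups (log2 fold change 0.85 ± 0.51 SE by limma, adjusted p = 0.618).

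Timp1 varied widely between canagliflozin ovaries. TIMP1 is a soluble inhibitor of most secreted MMPs and is inducible by cytokines. It had 8156, 2009.8, 20818, 2412 and 1612 in canagliflozin ovaries, 2455, 2441, 1306, 2551 and 841 in 12-month controls and 1093, 2346, 1621, 1317 and 555 in 6-month controls. Canagliflozin replicates 1 and 3 stood far above every other ovary, while the other 3 canagliflozin ovaries lay inside the 12-month control range. The mean was 7002 ± 8174 in canagliflozin ovaries and 1919 ± 790.0 in 12-month controls (SD, n = 5 each), with a median of 2412 in canagliflozin ovaries and 2441 in 12-month controls. Timp1 did not pass the test (log2 fold change 1.26 ± 0.65 SE by limma, adjusted p = 0.564). Without canagliflozin replicate 3 the log2 fold change was 0.68 (limma adjusted p = 0.830), and without replicates 1 and 3 it was 0.17 (limma adjusted p = 0.951). Canagliflozin replicates 1 and 3 also had their group's highest granulosa marker sums, 53666 and 50540 against 23924 to 32711. Their corpus luteum sums were its lowest. Their sums of surface epithelium (2772 and 3184), periovulatory (297 and 146) and theca markers (3147 and 1519) were likewise the group's highest. For surface epithelium, canagliflozin replicate 5 came close at 2600. In 12-month control 3, with Timp1 at 1306, the granulosa sum was 47367. Its surface epithelium, periovulatory and theca sums were 1754, 56.0 and 2091. The part of cell make-up in the Timp1 values was not tested.

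Timp2, which binds proMMP2 and MMP14 as well as inhibiting, had 2200.2, 3089.9, 1828, 3027 and 3055 in canagliflozin ovaries, 4602, 3716, 1809, 3876 and 3202 in 12-month controls and 4737, 5672, 4823, 6012 and 4849 in 6-month controls. Its canagliflozin and 12-month control ranges overlapped (log2 fold change -0.35 ± 0.21 SE by limma, adjusted p = 0.621), whereas every 6-month ovary was above every 12-month ovary of either group. Between the control groups Timp2 narrowly missed the threshold (log2 fold change -0.66 ± 0.21 SE by limma, adjusted p = 0.0529) and passed it in DESeq2 (adjusted p = 0.0299). Timp3 stays bound to matrix and blocks ADAMTS4, ADAMTS5 and ADAM17; it had 3495, 4972, 3811, 3407 and 3217 in canagliflozin ovaries, 4125, 3608, 2882, 3928 and 2949.8 in 12-month controls and 3211, 4371, 3807, 4329 and 3527 in 6-month controls. All 3 groups overlapped for Timp3, and of its 3 comparisons that between the control groups had the largest difference in size (log2 fold change -0.14 ± 0.14 SE by limma, adjusted p = 0.542). Timp4 was rare, with 8.52, 8.94, 16.8, 26.8 and 14.01 in canagliflozin ovaries, 11.5, 10.7, 5.51, 21.5 and 25.2 in 12-month controls and 75.8, 50.9, 52.6, 10.2 and 29.7 in 6-month controls. Of the 6-month ovaries, 4 were above every 12-month ovary of either group and 6-month replicate 4 was not (log2 fold change -1.41 ± 0.50 SE by limma, adjusted p = 0.0762 between the control groups). Counted on recovered reads, Timp4 passed in edgeR (adjusted p = 0.0455).

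**Figure D2:**
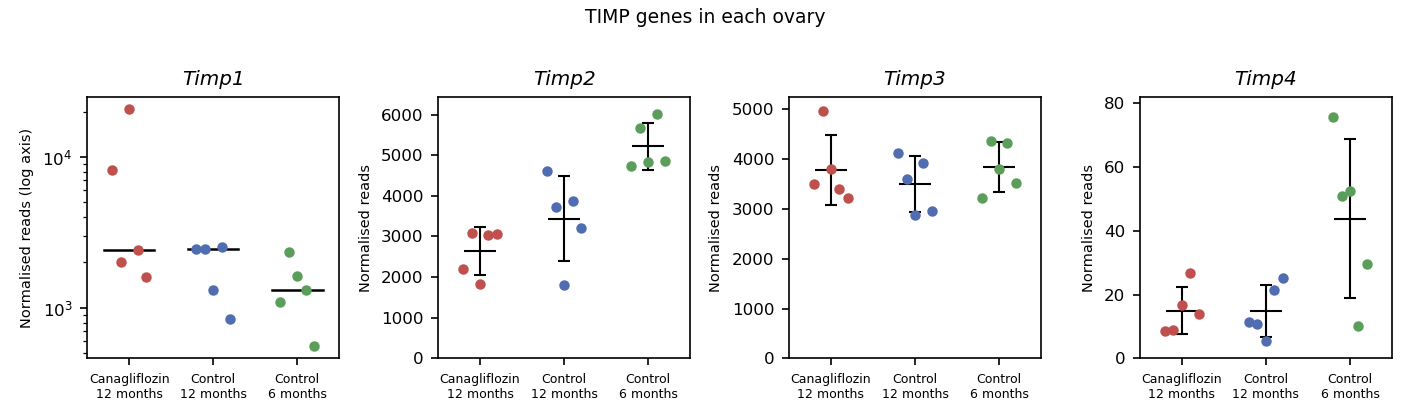
Normalised reads of the 4 TIMP genes in each ovary (points), with the mean and SD as bars, except Timp1, whose axis is logarithmic and whose bar is the median. The 2 canagliflozin points of Timp1 at 8156 and 20818 stand above the rest, and the 6-month points of Timp2 lie above all 12-month points.

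Age was compared between untreated 12-month and 6-month mice, and here several proteases changed. In limma, 9 of the 35 genes tested were called (25.7%), against 12.4% of all 17569 genes; 3 were higher (5.4% of all genes) and 6 lower (7.01% of all genes) at 12 months. The groups did not overlap for 8 of 35, against 13.7% of all genes. The median log2 fold change was -0.40 over the 35 and 0.00 over all genes tested. Mmp12, Adamts5 and Adamts6 rose, and Mmp11, Mmp28, Mmp17, Adamts14, Adamts7 and Adamtsl1 fell. Counts by family below stand against the same shares, 5.4% of all genes higher and 7.01% lower.

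Among secreted MMPs, 1 of 6 tested rose and 2 fell. Mmp11 (stromelysin-3), which furin activates before secretion, had 1581, 1453, 1088, 1784 and 1962 in canagliflozin ovaries, 2389.7, 1968, 1498, 2857 and 1808 in 12-month controls and 3389, 3611, 3352, 2725 and 2686 in 6-month controls. Of the 12-month controls, 4 were below every 6-month ovary and replicate 4 was not, and every canagliflozin ovary was below every 6-month ovary (log2 fold change -0.61 ± 0.17 SE by limma, adjusted p = 0.0315). Mmp11 remained called in 9 of 15 fits that left out 1 library; the call was lost without 12-month control 2, 3 or 5 or 6-month control 1, 2 or 3 (limma adjusted p up to 0.0814). Mmp28 (epilysin), a furin-activated enzyme, had 32.9, 31.3, 12.8, 29.7 and 50.04 in canagliflozin ovaries, 31.5, 22.3, 33.04, 41.02 and 33.9 in 12-month controls and 42.7, 66.3, 91.6, 66.1 and 63.5 in 6-month controls. Every 12-month control was below every 6-month ovary (log2 fold change -0.99 ± 0.30 SE by limma, adjusted p = 0.0370). That call held in 7 of 15 such fits, and was lost without 12-month control 1, 2, 3 or 5 or 6-month control 2, 3, 4 or 5 (limma adjusted p up to 0.0940).

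Mmp12, the macrophage elastase, went the other way, with 175, 70.02, 59.2, 121 and 115 in canagliflozin ovaries, 228, 331, 89.95, 365 and 66.00 in 12-month controls and 34.1, 29.1, 45.8, 77.2 and 129 in 6-month controls. In 12-month controls, 3 ovaries lay above all 6-month ovaries and 2 lay within their range (log2 fold change 1.68 ± 0.51 SE by limma, adjusted p = 0.0439; 3.21-fold). Of the 9 calls this one held in the fewest fits, namely 5 of 15 fits that left out 1 library, and was lost without 12-month control 1, 2 or 4, 6-month control 1, 2, 3 or 4, or canagliflozin 2, 4 or 5, which share the estimate of the spread (limma adjusted p up to 0.112). The sum of 5 macrophage markers, all measured in every group, was 886 to 2334 in 12-month controls and 1645 to 2665 in 6-month controls (exact two-sided permutation p = 0.190, adjusted over 15 lists 0.408). Of these markers Adgre1 (log2 fold change -1.31, limma adjusted p = 0.00508) and Csf1r (log2 fold change -1.06, limma adjusted p = 0.0105) fell. The other 3 did not pass the test, namely Mrc1 (log2 fold change -0.41, limma adjusted p = 0.231), Cd68 (log2 fold change -0.01, limma adjusted p = 0.985) and C1qa (log2 fold change 0.08, limma adjusted p = 0.874). The part of macrophages in the Mmp12 difference was not tested.

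Mmp2 (gelatinase A) had 1275, 1377, 747, 1981 and 1602 in canagliflozin ovaries, 2223, 1695, 727, 2409.9 and 1323 in 12-month controls and 2234, 5138, 4156, 2872 and 2303 in 6-month controls. Among 12-month controls, replicate 4 reached the 6-month range, replicate 1 lay just below its lowest value, and replicate 3 was the lowest of all 15 ovaries. The difference did not pass the test (log2 fold change -1.03 ± 0.34 SE by limma, adjusted p = 0.0597), though it did in DESeq2 (adjusted p = 0.0143). The remaining tested members also missed the threshold: Mmp19 ranged over 153 to 348 in 12-month and 247 to 751 in 6-month controls (log2 fold change -0.56, limma adjusted p = 0.217), and Mmp9 over 44.1 to 296 in 12-month and 103 to 397 in 6-month controls (log2 fold change -0.94, limma adjusted p = 0.180). The untested Mmp13 (collagenase-3) and Mmp10 (stromelysin-2) lay at 2.86 to 7.76 and 0 to 5.82 in 12-month controls and at 1.98 to 8.53 and 0 to 2.73 in 6-month controls. In canagliflozin ovaries Mmp10 was 13.4, 0, 21.7, 0.991 and 0. It reached the inclusion limit of 3 through replicates 1 and 3, since its mean was 2.48 in 12-month and 1.63 in 6-month controls.

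Of the membrane-anchored MMPs, 1 of 6 fell with age and none rose. Mmp17, held by a glycolipid anchor, had 52.3, 93.9, 55.2, 89.2 and 86.1 in canagliflozin ovaries, 84.97, 95.1, 78.9, 79.99 and 67.7 in 12-month controls and 164, 127, 135, 118 and 156 in 6-month controls. Every 12-month ovary, treated or not, was below every 6-month ovary (log2 fold change -0.77 ± 0.18 SE by limma, adjusted p = 0.0105), and the call held in all 15 fits that left out 1 library. Mmp14, the transmembrane collagenase that activates proMMP2, had 2071, 1505, 1150.4, 1762 and 1956 in canagliflozin ovaries, 2942, 2133, 1143, 2698 and 1773 in 12-month controls and 2759, 3001, 2851, 3750.0 and 2642 in 6-month controls. Its control groups overlapped, 12-month controls 1 and 4 lying among the 6-month values (log2 fold change -0.55 ± 0.22 SE by limma, adjusted p = 0.118). Mmp16, a transmembrane relative, had 29.2, 28.3, 15.8, 44.6 and 54.04 in canagliflozin ovaries, 35.3, 39.8, 35.8, 59.5 and 46.02 in 12-month controls and 43.6, 59.96, 53.6, 58.5 and 63.5 in 6-month controls and likewise overlapped (log2 fold change -0.38 ± 0.27 SE by limma, adjusted p = 0.398). Mmp15 ranged over 576 to 733 in 12-month and 499 to 1089 in 6-month controls (log2 fold change -0.16, limma adjusted p = 0.750), and Mmp23 did not pass the test (log2 fold change 0.04, limma adjusted p = 0.885). Mmp25, found mainly in leukocytes, reached at most 15.6 normalised reads in any library. Its direction was not settled: its mean was 9.75 in 12-month and 10.9 in 6-month controls, 1 of which had 0. Its log2 fold change was 0.24 in limma (adjusted p = 0.847), -0.54 without 6-month control 3 and -0.15 in edgeR.

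Among the ADAMTS proteoglycanases, 1 of 5 tested rose and none fell. Adamts5, the main mouse aggrecanase, had 782, 361, 279, 312 and 365 in canagliflozin ovaries, 315, 841, 403, 472 and 287 in 12-month controls and 181, 146, 97.4, 248 and 263 in 6-month controls. Every 12-month ovary, treated or not, was above every 6-month ovary (log2 fold change 1.28 ± 0.34 SE by limma, adjusted p = 0.0227; 2.43-fold). The call held in 13 of 15 fits that left out 1 library and was lost without 6-month control 2 or 3 (limma adjusted p = 0.0575 and 0.0594). Adamts1, the progesterone-dependent versican-cleaving enzyme of ovulation, was the most abundant of the family per kb, with 607, 492, 404, 489.7 and 574 in canagliflozin ovaries, 635, 568, 376, 1119.8 and 404 in 12-month controls and 469, 1136, 1042, 908 and 634 in 6-month controls. Its groups overlapped, 12-month control 4 lying close to the highest 6-month value (log2 fold change -0.48 ± 0.28 SE by limma, adjusted p = 0.301). Adamts9 had 583, 597, 807, 583 and 684 in canagliflozin ovaries, 927, 663, 453, 810.1 and 755 in 12-month controls and 498, 541, 595, 755 and 479 in 6-month controls, again with overlap (log2 fold change 0.31 ± 0.17 SE by limma, adjusted p = 0.258).

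Adamts15, whose values are given above, did not overlap between the control groups (at most 66.9 in 12-month and at least 69.95 in 6-month controls) and did not pass the test (log2 fold change -0.55 ± 0.27 SE by limma, adjusted p = 0.204). Adamts4, the other aggrecanase, ranged over 25.7 to 194 in 12-month and 89.03 to 175 in 6-month controls (log2 fold change -0.55, limma adjusted p = 0.484). Adamts8 and Adamts20, too low to test, had 1.03 to 6.68 and 5.82 to 23.9 in 12-month controls against 6.64 to 13.6 and 0.991 to 6.78 in 6-month controls, so both overlapped.

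The procollagen N-propeptidases trim the amino ends of fibrillar procollagens. Adamts14 had 74.2, 86.4, 54.3, 80.3 and 69.1 in canagliflozin ovaries, 84.02, 52.4, 41.3, 109.7 and 80.8 in 12-month controls and 119, 136, 155, 160.2 and 93.2 in 6-month controls. It fell with age (log2 fold change -0.90 ± 0.24 SE by limma, adjusted p = 0.0212), although 12-month control 4 lay inside the 6-month range; the call held in 11 of 15 fits that left out 1 library and was lost without 12-month control 2 or 3 or 6-month control 3 or 4 (limma adjusted p up to 0.0550). Adamts2, which carried 91.3% of this family's level per kb, had 1859, 1871, 1725, 1959.8 and 1165 in canagliflozin ovaries, 1467, 1880.3, 1813, 1658 and 2444 in 12-month controls and 2315, 2605, 2347, 2354 and 2384 in 6-month controls. Of the 12-month controls, 4 were below all 6-month ovaries and replicate 5 was not (log2 fold change -0.39 ± 0.14 SE by limma, adjusted p = 0.0841). Adamts3 was rare, at 3.67 to 23.6 in 12-month and 6.78 to 17.5 in 6-month controls (log2 fold change 0.09, limma adjusted p = 0.926).

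In the remaining ADAMTS genes, 1 of 7 tested rose and 1 fell. Adamts7, which cuts cartilage oligomeric matrix protein (COMP), had 313, 249, 231, 291 and 276 in canagliflozin ovaries, 291, 238, 178, 256 and 265 in 12-month controls and 415, 419.7, 401, 340.0 and 325 in 6-month controls. All 10 ovaries from 12-month mice were below all 6-month ovaries (log2 fold change -0.64 ± 0.13 SE by limma, adjusted p = 0.00555), the smallest adjusted p of the 35 in this comparison. Adamts6, a microfibril-associated relative of Adamts10, had 332, 231, 283, 211 and 177 in canagliflozin ovaries, 168, 355, 343, 207 and 249 in 12-month controls and 157, 115, 63.3, 144 and 164 in 6-month controls. All 10 were above all 6-month ovaries, the nearest being 12-month control 1 at 168 and 6-month control 5 at 164 (log2 fold change 1.05 ± 0.27 SE by limma, adjusted p = 0.0171; 2.07-fold). Both calls held in all 15 fits that left out 1 library.

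Adamts10, by far the most abundant of this family with 77.1% of its level per kb, had 4461, 3577, 4088, 5601 and 3359.8 in canagliflozin ovaries, 2952, 3250.2, 3619, 4054 and 3718 in 12-month controls and 2839, 3085, 2734, 3676 and 3986 in 6-month controls, and its groups overlapped (log2 fold change 0.12 ± 0.14 SE by limma, adjusted p = 0.651). Adamts19 had 624, 285, 471, 366 and 557 in canagliflozin ovaries, 436, 572, 468, 581 and 451 in 12-month controls and 419.9, 352, 386, 419 and 499 in 6-month controls and overlapped as well (log2 fold change 0.27 ± 0.18 SE by limma, adjusted p = 0.347). Adamts12, Adamts16 and Adamts17 had log2 fold changes of 0.02, -0.84 and -0.69 with limma adjusted p of 0.973, 0.199 and 0.105. Adamts18, not tested, lay at 1.84 to 10.5 in 12-month and 2.73 to 11.02 in 6-month controls.

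Of the ADAMTS-like genes, 1 of 4 fell and none rose. Adamtsl1 (punctin-1) had 46.2, 74.5, 90.8, 106 and 75.1 in canagliflozin ovaries, 65.9, 73.7, 44.1, 63.6 and 65.1 in 12-month controls and 95.7, 86.3, 119, 119 and 142 in 6-month controls. Every 12-month control was below every 6-month ovary, while 2 canagliflozin ovaries lay inside the 6-month range (log2 fold change -0.83 ± 0.21 SE by limma, adjusted p = 0.0174). The call held in all 15 fits that left out 1 library. Adamtsl2, a microfibril protein, had 204, 237, 201, 284 and 145 in canagliflozin ovaries, 136, 211, 274, 191 and 235 in 12-month controls and 126, 109, 102, 198 and 308 in 6-month controls; 6-month control 5 was the highest of all ovaries and the groups overlapped (log2 fold change 0.40 ± 0.28 SE by limma, adjusted p = 0.381). Adamtsl4 and Adamtsl5 had log2 fold changes of 0.15 and -0.40 (limma adjusted p = 0.882 and 0.406).

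**Figure D3:**
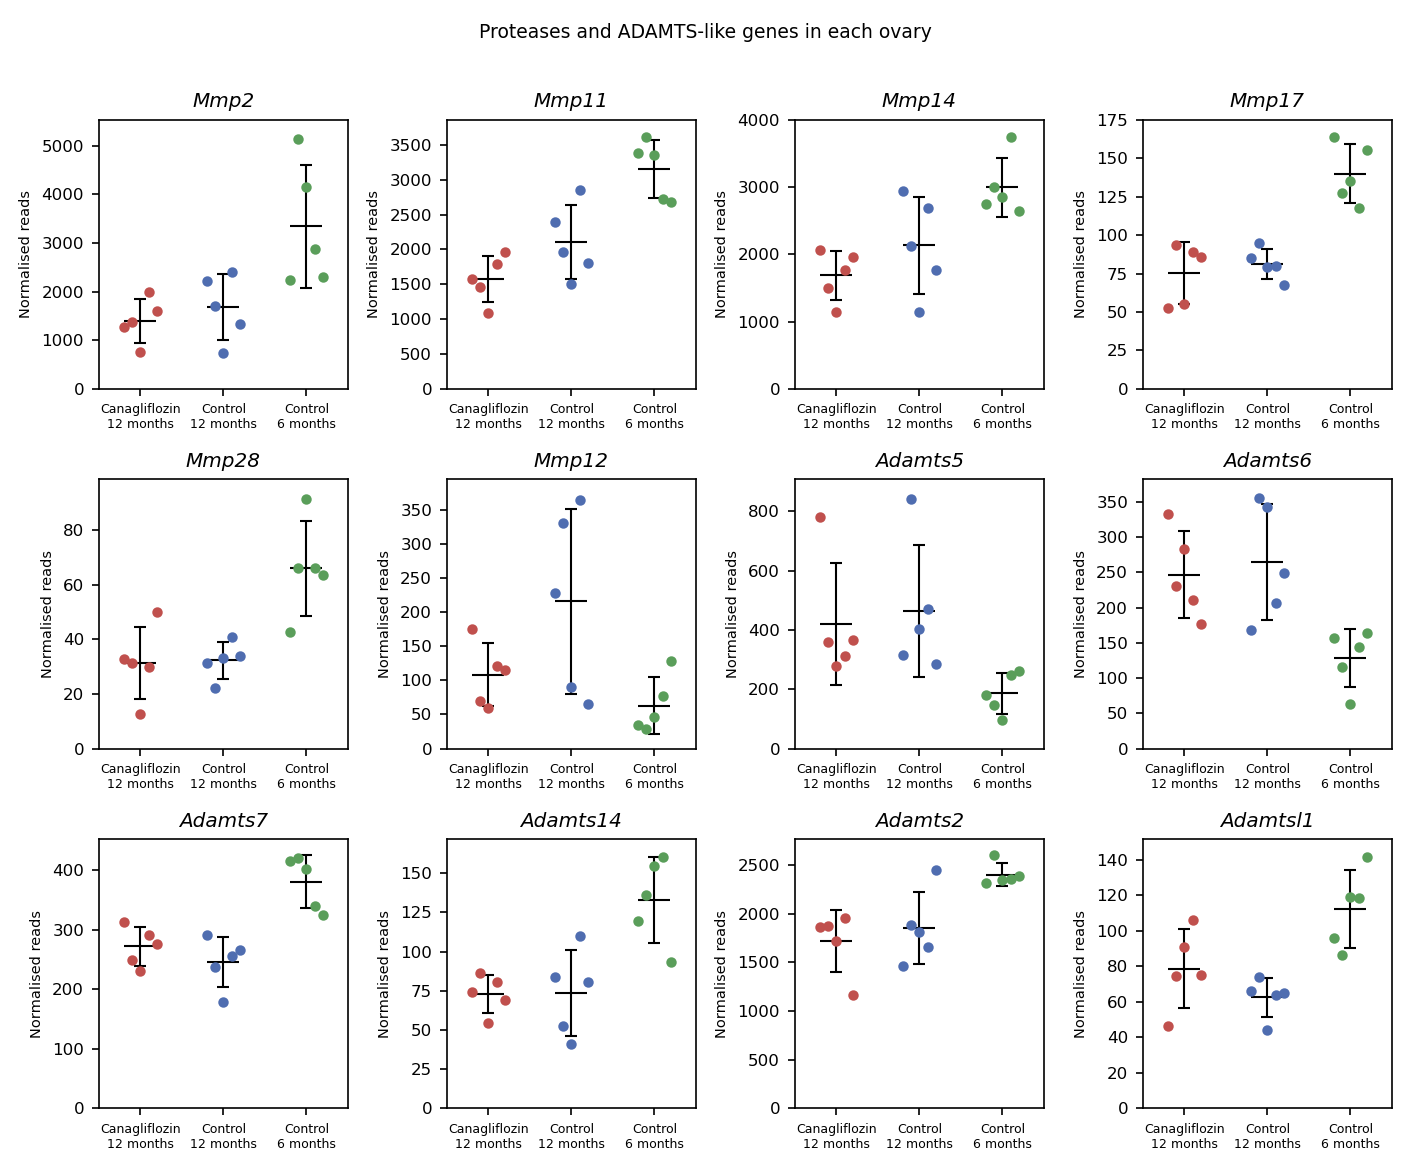
Normalised reads in each ovary (points) with mean and SD (bars, n = 5 per group) for 12 of the 15 genes called in at least 1 comparison. Mmp17, Adamts7, Adamts5 and Adamts6 show no overlap between the 10 ovaries of 12-month mice and the 5 of 6-month mice.

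Markers of other ovarian cell types were summed for the same comparison. The summed level of 5 smooth muscle markers was 7511 to 13852 in 12-month and 12968 to 18758 in 6-month controls (exact two-sided permutation p = 0.0317, adjusted 0.159). That of 4 endothelial markers was 2699 to 3269 in 12-month and 3288 to 3701 in 6-month controls (exact p = 0.00794, adjusted 0.0595), and that of 4 B and plasma cell markers 267 to 1044 in 12-month and 29.2 to 51.2 in 6-month controls (exact p = 0.00794, adjusted 0.0595). The sum of 6 granulosa markers was 25147 to 47367 in 12-month and 16049 to 29401 in 6-month controls (exact p = 0.0476, adjusted 0.179), and that of 4 stromal markers 6158 to 12174 in 12-month and 9066 to 14774 in 6-month controls (exact p = 0.333, adjusted 0.556). That of 4 fat cell markers was 269 to 995 in 12-month and 253 to 505 in 6-month controls (exact p = 0.183, adjusted 0.408). Of these, Adipoq (log2 fold change 3.20, limma adjusted p = 0.0143), Fabp4 (log2 fold change 2.51, limma adjusted p = 0.00416) and Cidec (log2 fold change 2.41, limma adjusted p = 0.0223) rose. Plin1, which held most of the sum, did not pass the test (log2 fold change -0.31, limma adjusted p = 0.554). Single markers were also mixed in other lists. Of the 4 endothelial markers, 0 were called higher and 1 lower in limma (log2 fold change -0.45 to 0.28). Of the 6 granulosa markers, 1 was called higher and 0 lower (log2 fold change -0.29 to 1.93), and 2 were below 0. Over all genes 5.4% were called higher and 7.01% lower. With 5 against 5 the smallest exact p is 0.00794. The part of these compartments in the protease differences was not tested.

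**Figure D4:**
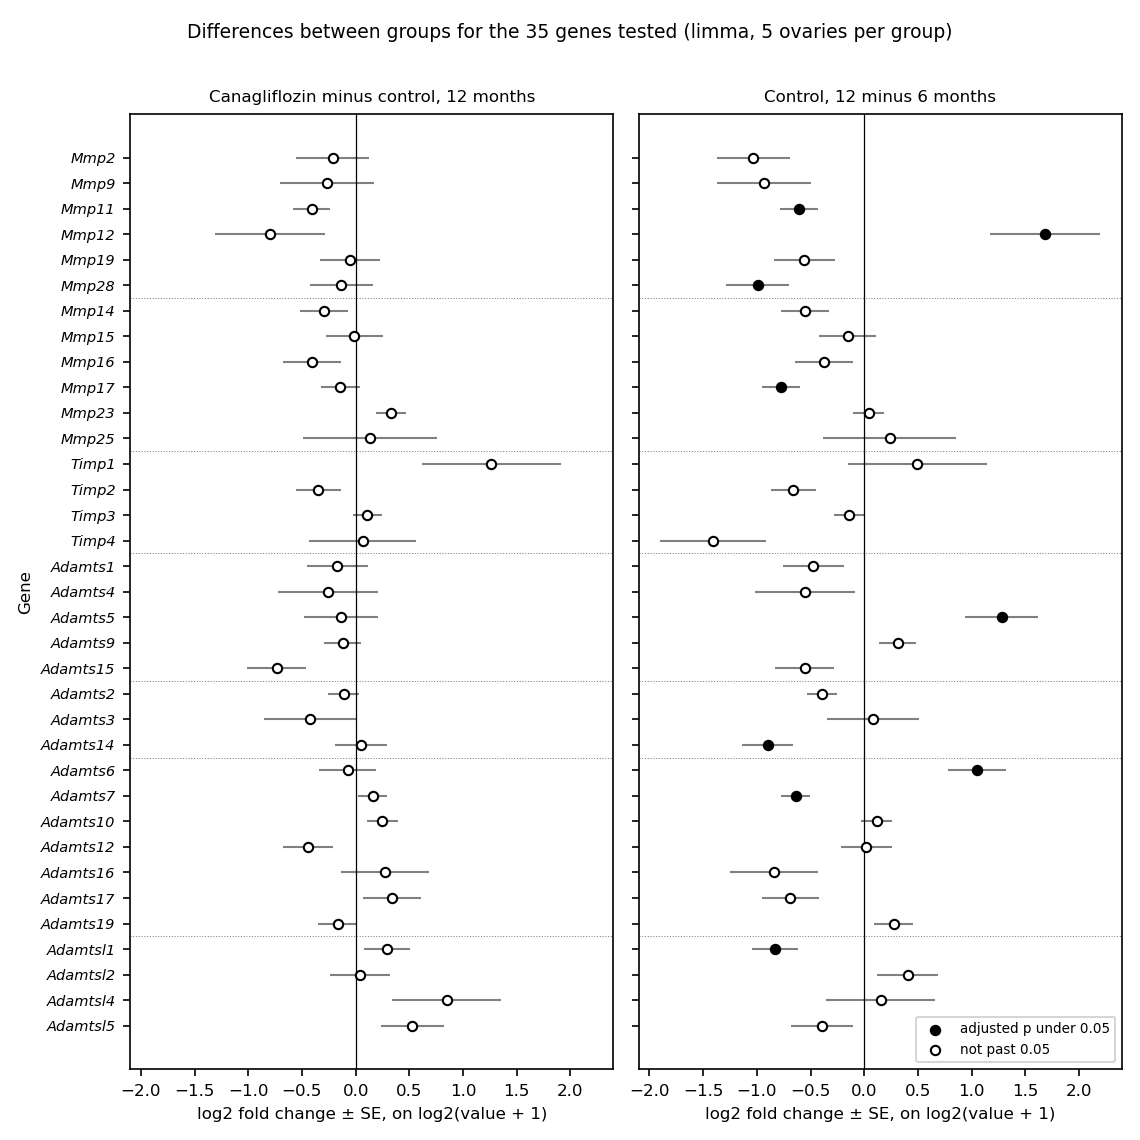
Log2 fold change with its SE for the 35 genes tested, for canagliflozin against 12-month controls (left) and 12-month against 6-month controls (right), with dotted lines between families. Filled circles passed an adjusted p under 0.05: 0 on the left and 9 on the right, 3 of them above 0.

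Canagliflozin-treated mice were also set against 6-month controls. This comparison shares a group with each of the others and combines the drug with 6 months of age, which cannot be told apart in it. In limma, 13 of 35 genes were called (37.1%), against 28.4% of all genes; 2 were higher (13.5% of all genes) and 11 lower (14.9% of all genes). The groups did not overlap for 11 of 35, against 18.5% of all genes. Adamts5 (log2 fold change 1.14, limma adjusted p = 0.0212) and Adamts6 (log2 fold change 0.97, limma adjusted p = 0.0133) were the higher ones.

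Lower with canagliflozin than in 6-month controls were Mmp11 (log2 fold change -1.02 ± 0.17 SE by limma, adjusted p = 0.000683), Mmp2 (log2 fold change -1.25 ± 0.34 SE by limma, adjusted p = 0.0137), its activator Mmp14 (log2 fold change -0.85 ± 0.22 SE by limma, adjusted p = 0.0104) and Timp2 (log2 fold change -1.01 ± 0.21 SE by limma, adjusted p = 0.00267). For each of these 4, every canagliflozin ovary was below every 6-month ovary. Adamts15 (log2 fold change -1.29, limma adjusted p = 0.00274), Mmp17 (log2 fold change -0.92, limma adjusted p = 0.00161), Adamts14 (log2 fold change -0.85, limma adjusted p = 0.0152), Adamts2 (log2 fold change -0.51, limma adjusted p = 0.0151) and Adamts7 (log2 fold change -0.48, limma adjusted p = 0.0131) were also fully separated. Mmp28 (log2 fold change -1.13, limma adjusted p = 0.0101) and Mmp16 (log2 fold change -0.79, limma adjusted p = 0.0391) fell with overlap. The Mmp16 call was lost without canagliflozin 1, 2 or 3 or 6-month control 2, 3, 4 or 5 (limma adjusted p up to 0.0975) and in edgeR (adjusted p = 0.0627). That of Adamts5 was lost without canagliflozin 1 or 6-month control 3 (limma adjusted p up to 0.0538).

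Timp1 missed the threshold in this comparison (log2 fold change 1.75 ± 0.65 SE by limma, adjusted p = 0.0573). It was called by edgeR (adjusted p = 0.0207) and DESeq2 (adjusted p = 0.00256). In limma it was called with the filter of 50, the replicate block or sample weights, and without canagliflozin replicate 2 or 5. Without canagliflozin replicates 1 and 3 the limma adjusted p was 0.329. Without canagliflozin replicates 1 and 3 together, a setting chosen after those values were seen, 8 of 35 genes were called, all lower; the calls of Adamts5, Adamts6, Adamts14, Mmp2 and Mmp16 were lost. In the same comparison the summed macrophage markers were 1054 to 1685 in canagliflozin ovaries and 1645 to 2665 in 6-month controls (exact two-sided permutation p = 0.0159, adjusted 0.119). The stromal markers were 6664 to 10174 in canagliflozin ovaries and 9066 to 14774 in 6-month controls (exact p = 0.0397, adjusted 0.149), and smooth muscle markers 7187 to 14919 in canagliflozin ovaries and 12968 to 18758 in 6-month controls (exact p = 0.0238, adjusted 0.119). The B and plasma cell markers were 462 to 924 in canagliflozin ovaries and 29.2 to 51.2 in 6-month controls (exact p = 0.00794, adjusted 0.119). Fat cell markers were 277 to 705 in canagliflozin ovaries and 253 to 505 in 6-month controls (exact p = 0.508, adjusted 0.635). Taken singly in limma, 3 of the 4 fat cell markers were called higher and 1 lower (log2 fold change -0.995 to 2.75). Of all genes, 13.5% were called higher and 14.9% lower. The part of these cell types in the result was not tested.

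Summed per kb of exon, the secreted MMPs gave 1109.5 ± 261 in canagliflozin ovaries, 1409.9 ± 414 in 12-month controls and 2338 ± 544 in 6-month controls (mean ± SD, n = 5 each). Membrane MMPs gave 792 ± 99.3 in canagliflozin ovaries, 782 ± 124 in 12-month controls and 952 ± 98.8 in 6-month controls. All ADAMTS proteases gave 1041 ± 139 in canagliflozin ovaries, 1014 ± 108 in 12-month controls and 1068 ± 80.3 in 6-month controls. Thus the mean secreted MMP total was lowest in canagliflozin ovaries and highest at 6 months, whereas the ADAMTS totals differed by less than 1 SD. TIMPs without Timp1 gave 1144 ± 184 in canagliflozin ovaries, 1315 ± 330.4 in 12-month controls and 1819.6 ± 205 in 6-month controls. Divided by the MMP total of the same ovary they gave 0.611 ± 0.0994 in canagliflozin ovaries, 0.600 ± 0.0584 in 12-month controls and 0.560 ± 0.0852 in 6-month controls. With Timp1 included, that ratio ranged over 1.42 to 17.9 in canagliflozin ovaries, 1.07 to 1.97 in 12-month controls and 0.847 to 1.17 in 6-month controls. Timp1 supplied 75.6 ± 16.5% of the TIMP level in canagliflozin ovaries, 60.6 ± 9.22% in 12-month controls and 44.1 ± 11.4% in 6-month controls. Sums over these genes were described without a test.

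**Figure D5:**
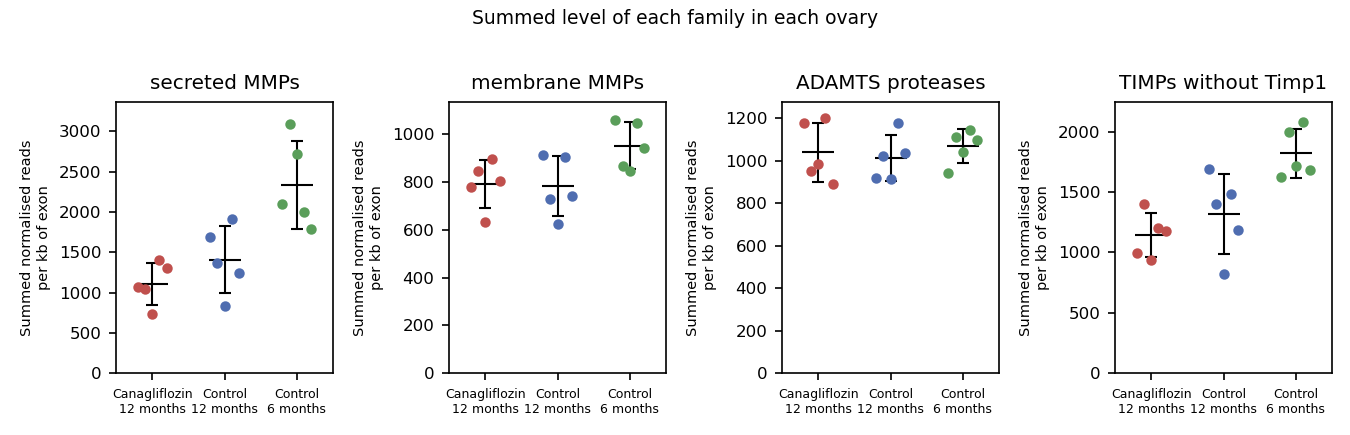
Summed normalised reads per kb of exon for secreted MMPs, membrane MMPs, ADAMTS proteases and TIMPs without Timp1 in each ovary (points), with mean and SD (bars, n = 5 per group). The secreted MMP sums of 6-month ovaries, 1784 to 3086, overlap only in part with those of 12-month controls, 834 to 1908, and not with those of canagliflozin ovaries.

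Genes that activate, clear or are cut by these enzymes were counted as 3 further lists. With canagliflozin against 12-month controls, 0 of 15 regulators, 0 of 10 ADAM-family genes and 0 of 15 substrates were called in limma. Of all genes, only 0.00569% were called in that comparison. The smallest p among regulators were those of Reck, a membrane-anchored MMP inhibitor, with 233 ± 55.4 normalised reads in canagliflozin ovaries and 357 ± 92.9 in 12-month controls (log2 fold change -0.60 ± 0.20 SE by limma, adjusted p = 0.462), and Pcsk6, a proprotein convertase, with 339 ± 106 normalised reads in canagliflozin ovaries and 474 ± 108 in 12-month controls (log2 fold change -0.50 ± 0.26 SE by limma, adjusted p = 0.559). Among substrates they were aggrecan, Acan, with 38.8 ± 14.4 normalised reads in canagliflozin ovaries and 98.5 ± 57.4 in 12-month controls (log2 fold change -1.24 ± 0.40 SE by limma, adjusted p = 0.462), and Vwf, with 93.1 ± 20.99 normalised reads in canagliflozin ovaries and 125 ± 24.5 in 12-month controls (log2 fold change -0.42 ± 0.18 SE by limma, adjusted p = 0.514). Among ADAMs they were Adamdec1, which is secreted, with 27.2 ± 4.30 normalised reads in canagliflozin ovaries and 47.2 ± 14.00 in 12-month controls (log2 fold change -0.74 ± 0.26 SE by limma, adjusted p = 0.462), and the ectodomain sheddase Adam10, with 1198 ± 98.8 normalised reads in canagliflozin ovaries and 1389.6 ± 133 in 12-month controls (log2 fold change -0.21 ± 0.09 SE by limma, adjusted p = 0.495).

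With age, when 5.4% of all genes were called higher and 7.01% lower, 0 of 15 regulators rose and 4 fell: Lrp1, Furin, Pcsk5 and Pcsk6. Lrp1, the endocytic receptor that clears MMPs, ADAMTS proteases and TIMPs, had 9331 ± 1813 normalised reads in 12-month controls and 17637 ± 896 in 6-month controls (log2 fold change -0.94 ± 0.16 SE by limma, adjusted p = 0.00180). Furin, which activates MMP11, MMP28 and the membrane MMPs, had 1815 ± 197 normalised reads in 12-month controls and 2470.4 ± 136 in 6-month controls (log2 fold change -0.45 ± 0.10 SE by limma, adjusted p = 0.00975). Of 10 ADAM-family genes, Adam19, with 469 ± 109.7 normalised reads in 12-month controls and 838 ± 174 in 6-month controls (log2 fold change -0.84 ± 0.18 SE by limma, adjusted p = 0.00603), and Adam15, with 793 ± 67.6 normalised reads in 12-month controls and 959 ± 59.5 in 6-month controls (log2 fold change -0.28 ± 0.08 SE by limma, adjusted p = 0.0426), fell and none rose.

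Of 15 substrates tested, 1 rose with age (5.4% of all genes) and 7 fell (7.01% of all genes); Vwf apart, those that fell were collagen chains and fibrillin-1. The riser was Comp, the substrate of ADAMTS7, with 98.3 ± 49.3 normalised reads in 12-month controls and 14.4 ± 7.51 in 6-month controls (log2 fold change 2.67 ± 0.45 SE by limma, adjusted p = 0.00171). Vwf, an endothelial product cut by ADAMTS13, fell, with 125 ± 24.5 normalised reads in 12-month controls and 313 ± 56.6 in 6-month controls (log2 fold change -1.33 ± 0.18 SE by limma, adjusted p = 0.000408). Against 6-month controls, where 13.5% of all genes were called higher and 14.9% lower with canagliflozin, there were 1 regulator called higher and 5 lower, 0 ADAMs higher and 1 lower, and 1 substrate higher and 9 lower. The 2 regulators with the smallest p there were Lrp1, with 9779 ± 2349.5 normalised reads in canagliflozin ovaries and 17637 ± 896 in 6-month controls (log2 fold change -0.88 ± 0.16 SE by limma, adjusted p = 0.00103), and Pcsk6, with 339 ± 106 normalised reads in canagliflozin ovaries and 892 ± 304 in 6-month controls (log2 fold change -1.39 ± 0.26 SE by limma, adjusted p = 0.00117). Comp had 149 ± 114 normalised reads in canagliflozin ovaries and 14.4 ± 7.51 in 6-month controls (log2 fold change 3.12 ± 0.45 SE by limma, adjusted p = 0.000227). Vwf had 93.1 ± 20.99 normalised reads in canagliflozin ovaries and 313 ± 56.6 in 6-month controls (log2 fold change -1.75 ± 0.18 SE by limma, adjusted p = 2.39e-05), the smallest p of the substrates. Adam19 had 355 ± 64.96 normalised reads in canagliflozin ovaries and 838 ± 174 in 6-month controls (log2 fold change -1.23 ± 0.18 SE by limma, adjusted p = 0.000208). Adam15 had 827 ± 76.8 normalised reads in canagliflozin ovaries and 959 ± 59.5 in 6-month controls (log2 fold change -0.22 ± 0.08 SE by limma, adjusted p = 0.0667).

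Exons of 7 of the 40 genes overlap those of another listed gene on the opposite strand in GENCODE vM21. The shared stretch was over 10% of exon bases for Mmp19 (22.3%, with Tmem198b) and Timp3 (21.3%, with Syn3). It was 9.18% for Adamts9 (with A730049H05Rik) and 5.58% for Mmp11 (with Chchd10). Mean normalised reads of these partners were 272.5 for Tmem198b, 7.76 for Syn3, 527.5 for A730049H05Rik and 1839 for Chchd10. The libraries were directional, but whether reads were counted by strand is not given in the sources used here. Values of the 7 genes may therefore include reads of the partner.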

How the data were processed

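Polyadenylated RNA was sequenced from 1 ovary of each of 15 mice with a directional kit, per the labels' protocols. The deposited table gives a normalised signal per gene and library, not a count; from its values, the authors divided reads per gene by 1 size factor per library. Partek 11.0 and mm39 appear in the submitters' processing notes; which aligner, counter and annotation were used is not stated there or in the labels. Dividing by each library's smallest step gave whole reads within 0.1 for at least 99.9878% of values. The read depth in the labels is far below the recovered totals.

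Genes that reached 10 in 5 or more libraries (17569; 7087 removed) were tested in 1 limma 3.58.1 fit (R 4.3.3; trend, robust) on log2(value + 1), over all 15 libraries, with Benjamini-Hochberg adjusted p under 0.05 as the call; fold changes on this scale understate those of low genes. Alternatives were edgeR 4.0.16 (quasi-likelihood, TMM) on recovered reads, which called 9, 2224 and 5174 genes for canagliflozin against 12-month controls, 12-month against 6-month controls and canagliflozin against 6-month controls, and DESeq2 1.42.0. Other alternatives were pseudocounts of 0.5 and 5, no filter or a filter of 50, TMM factors, only the groups compared, a replicate block, sample weights, an adjusted p under 0.1 and each library left out. Leaving out canagliflozin replicates 1 and 3 together, and rescaling without mitochondrially encoded genes, were added after seeing the data. Replicate numbers did not pair ovaries.

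Values in every library are given for genes called in any comparison, all TIMPs, the 2 most abundant genes per family and the 3 smallest p per comparison; lists name the 2 smallest p. The genes and lists were chosen with earlier results of these data known. For marker sums, exact permutation tests (two-sided) over mice were used, adjusted over 15 lists. Exon lengths (GENCODE vM21) matched all 40 genes; RefSeq promoter coordinates are on GRCm38.p6, not the build of the reads.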

Additional observations from a re-analysis of the deposited data

Results flagged for a closer look

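In 12 of 120 sets of 5 ovaries (1 gene in 1 group), the gap between the highest or lowest ovary and the nearest other, divided by the range of the 5, exceeded Dixon's critical value. Chance gives about 1 in 20 such sets for independent, normally spread values; the 120 sets come from the same 15 ovaries, so the number by chance is not known here. Of these, 7 were in canagliflozin ovaries, 1 in 12-month controls and 4 in 6-month controls. Canagliflozin replicate 1 was high for Adamts5 (782.5 normalised reads, the next ovary 365.3) and for Adamts4 (161, next 71.1), the aggrecanase pair. Canagliflozin replicate 3 was high for Adamtsl5 (66.1, next 32.7) and Mmp13 (13.8, next 6.08), replicate 2 for Adamtsl4 (755, next 228), replicate 4 for Mmp19 (402, next 241) and replicate 5 for Adamts18 (18.0, next 6.94). Among 12-month controls, replicate 3 was high for Adamtsl4 (439, next 165). Among 6-month controls, replicate 2 was high for Adamts2 (2605, next 2384) and Adamtsl5 (49.1, next 29.2), replicate 3 was high for Adamts15 (155, next 71.4), and replicate 3 had 0 reads of Mmp25, where the next ovary had 12.7.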

How the results depend on the processing

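For canagliflozin against 12-month controls, 0 of the 35 genes were called in each of 28 alternatives. For 12-month against 6-month controls the 9 calls became 4 to 11 when 1 library was left out, with 5 without 12-month control 2, 5 without 6-month control 2 and 4 without 6-month control 3. The 13 other alternatives gave 8 to 13, among them 10 by edgeR, 12 by DESeq2 and 12 with sample weights. For canagliflozin against 6-month controls the 13 calls became 11 to 16 when 1 library was left out, 8 without canagliflozin replicates 1 and 3 together, 15 by edgeR and 19 by DESeq2; the cause of these shifts was not tested. The 25 fold changes followed were those of called genes and of the 3 smallest p per comparison. Their signs did not reverse in any alternative, but they were chosen by their small p. Signs of other genes did reverse. For canagliflozin against 12-month controls, Mmp28 ranged from -0.33 to 0.18 and Adamts5 from -0.39 to 0.11 in log2 fold change. Replicate numbers did not pair ovaries: deviations of same-numbered ovaries correlated between -0.298 and 0.249. With the replicate block, 0, 8 and 14 genes were called in the 3 comparisons, and Mmp12 and Mmp28 lost their calls with age. Besides the block, Mmp12 was lost without a filter (limma adjusted p = 0.0644) and with only the groups compared (limma adjusted p = 0.0676). Fits without 1 library were read for the 40 genes, not for the other lists. Depth limits Mmp10, Mmp13, Adamts8, Adamts18 and Adamts20, which had too few reads to test, and 5 mice per group limit genes such as Timp1 that vary widely within a group.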
